A study of Mus musculus with 8 samples.

Results

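The 9 genes described here, Prrx1, Six2, Alx1, Alx4, Twist1, Twist2, Msx1, Msx2 and Tcf12, encode transcription factors of the mesenchyme that forms the skull roof and its sutures, and were found by symbol among the 27133 genes of a count table of mouse parietal bone. All 9 were in the table, and all 9 passed the filter on low counts that left 17028 genes for testing. The libraries came from C57BL6J pups given either an antibody that blocks CSF1R (aCSF1R, written anti-CSF1R here; libraries 7, 8, 9 and 10) or an isotype control antibody (libraries 2, 3, 4 and 5), applied transcranially on postnatal days 2, 4 and 6. Both groups were perfused, and the parietal bone, a flat bone of the skull roof that meets its neighbours at the sutures, was collected on postnatal day 9. The labels do not say how much suture tissue came with the bone. The treatment was meant to deplete myeloid cells, and the comparison asks how the bone's transcriptome differs after it. Whether each library holds the RNA of 1 pup is not in the labels, and p-values cover the spread among the 8 libraries, whatever its source.

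Flat skull bones grow at their edges, where suture mesenchyme holds progenitors that either stay undifferentiated or become osteoblasts. Twist1 and Twist2 are basic helix-loop-helix (HLH) factors that bind DNA as dimers, often with an E protein such as Tcf12, and hold back osteoblast differentiation. Msx1, Msx2, Alx1, Alx4 and Prrx1 carry homeodomains, and Six2 carries a homeodomain beside the domain that names its family. In people, loss of TWIST1 or TCF12 function and gain of MSX2 function are linked to early closure of sutures (craniosynostosis), and loss of MSX2 or ALX4 function to openings that persist in the parietal bones.

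Libraries held 57.5 M to 69.1 M counts. Csf1r, the gene of the antibody's target, stood at 39.4 to 64.4 CPM (counts per 1 M counts of the normalised library size) in anti-CSF1R libraries and at 238 to 549 CPM in isotype libraries. Isotype 3 and 4 stood apart from the other 6 libraries. Across genes, their Spearman correlation with the other 6 was 0.916 to 0.943, against 0.986 to 0.997 among the 6, and GC-rich transcripts were over-represented in both. Fold changes of the factors are therefore also given with isotype 2 and 5 as the only controls. Osteoblast markers (12 of 12 above 1 CPM, Col1a1 and Alpl among them) summed to 185000 to 219000 CPM in anti-CSF1R libraries and 207000 to 338000 CPM in isotype libraries. Col1a1 carried 42.4% of the osteoblast sum. Gene by gene the groups overlapped for all 12, and 8 fold changes lay below 0 and 4 above 0. Summed epidermal markers (8 genes, of which Dsg3 and Ivl were at 0 in every library) stayed at or below 5.04 CPM and brain markers (8 genes) at or below 24.6 CPM in every library, while 10 skeletal muscle markers summed to 73.4 CPM in isotype 3, to 28.2 CPM in isotype 2 and to 6.81 to 8.92 CPM in the other 6.

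None of the 9 factors passed the test between the groups. Of the 17028 genes tested, 0.846% were called (144 genes; edgeR quasi-likelihood test, Benjamini-Hochberg adjusted p under 0.05), against 0 of the 9. With 1 library left out the calls ranged from 0 genes (without anti-CSF1R 7 or without 8) to 260 (without isotype 2), and again 0 of the 9 were among them. Limma-voom called 0.84% of genes and none of the 9, while DESeq2 called 3.69% of genes as lower and Msx2 among them. Leaving out isotype 3 and 4, edgeR called 3.06% of genes (2.38% lower and 0.679% higher), and with an offset for the GC content and length of transcripts it called 2.16%, in both cases none of the 9. In edgeR 3 of the 9 had an unadjusted p under 0.05, namely Twist1, Msx2 and Six2, and each of these was lower with anti-CSF1R. Of all genes tested, 17.9% had such a p (3041 genes), so this count is read against that share, as are those of the lists below. For Twist1 and Msx2 the highest anti-CSF1R value was below the lowest isotype value. Over all genes tested, 8.34% were lower in that way and 15% did not overlap in either direction. The fold changes of the 9 factors split into 5 below 0 and 4 above 0 with a median of -0.0026 (log2), beside a median of 0.031 over all genes tested. In whole bone, fewer cells of a type and less RNA per cell cannot be told apart.

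**Figure D1:**
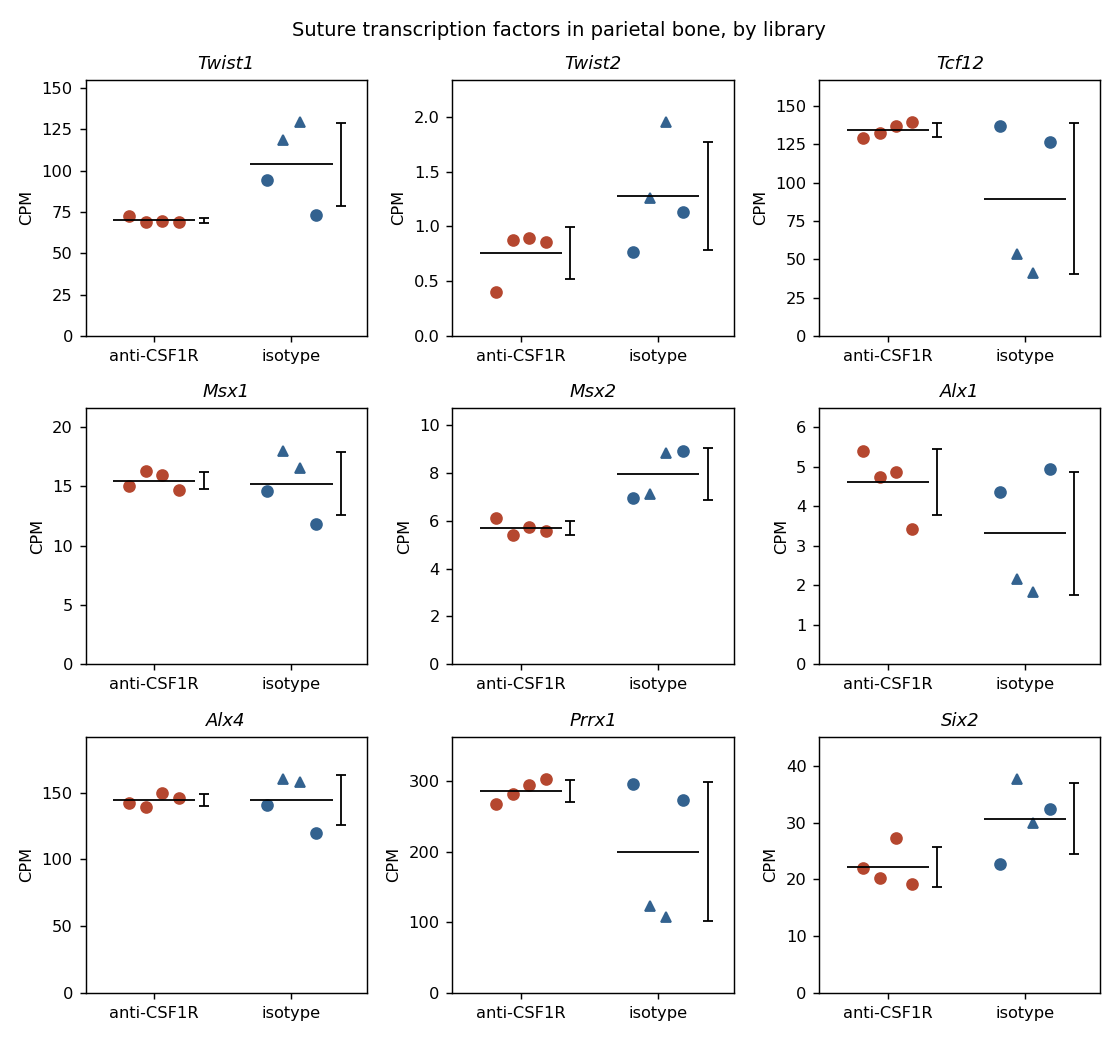
CPM of each factor in every library, with anti-CSF1R at left and isotype at right in each panel; lines are group means, bars are ± 1 SD (n = 4), and triangles are isotype 3 and 4. The groups do not overlap for Twist1 and Msx2, and the triangles are the 2 lowest values of Prrx1, Tcf12 and Alx1.

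Promoter sequences are shown for Twist1, whose groups did not overlap, and for Msx1, whose group means were nearly equal, as examples of the upstream DNA of the HLH and homeobox members. Both are the 250 bases before the RefSeq gene start (GRCm38.p6), written 5′ to 3′ on the gene's strand, with any E-box of the form CANNTG (the site of HLH dimers) and any TAATTA (a core bound by many homeodomains) in capitals. The Twist1 window is chr12:33957421-33957670 on the plus strand, and the Msx1 window is chr5:37824586-37824835 on the minus strand.
Twist1: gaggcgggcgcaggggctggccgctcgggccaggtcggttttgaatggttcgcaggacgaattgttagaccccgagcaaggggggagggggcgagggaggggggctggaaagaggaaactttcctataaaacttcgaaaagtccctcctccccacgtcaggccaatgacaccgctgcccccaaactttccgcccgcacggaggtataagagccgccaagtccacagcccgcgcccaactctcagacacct
Msx1: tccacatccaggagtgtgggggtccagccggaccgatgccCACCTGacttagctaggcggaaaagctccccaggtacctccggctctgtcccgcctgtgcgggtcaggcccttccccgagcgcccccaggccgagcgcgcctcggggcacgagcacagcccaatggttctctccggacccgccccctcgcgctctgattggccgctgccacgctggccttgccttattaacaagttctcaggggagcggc
The Twist1 window held neither motif, and the Msx1 window held 1 E-box, CACCTG, starting 210 bases before the gene start. Of 7 factors with an entry (Alx1 and Alx4 had none), the Msx2 window held the E-box CAGTTG 79 bases before the start and TAATTA 187 bases before it, and the Prrx1 window held TAATTA 173 bases before it. All 250 bases of the Msx2 window and of 1 Tcf12 window lie in a GENCODE M21 exon, so those windows are not upstream of every annotated transcript. The windows of Six2 and Twist2 held neither motif, and 2 of the 3 Tcf12 windows held an E-box each. Among all 32851 windows of this length, 66.2% held an E-box and 4.84% held TAATTA. The 2 motifs are each their own reverse complement, so each search covers both strands, and they did not overlap in any of these windows. A match is a description of the letters and not a binding site.

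Twist1, whose haploinsufficiency closes the coronal suture in mice and people, stood at 72.31, 68.99, 69.55 and 69.02 CPM in anti-CSF1R 7, 8, 9 and 10. In isotype 2, 3, 4 and 5 it stood at 94.55, 118.5, 129.2 and 73.34 CPM. The 4 anti-CSF1R libraries lay close together, isotype libraries were spread widely, and isotype 5 was only just above anti-CSF1R 7. The group means were 69.97 ± 1.58 CPM in anti-CSF1R libraries and 103.9 ± 24.99 CPM in isotype libraries (SD, n = 4 each), a log2 fold change of -0.57 ± 0.18 (SE) with an edgeR adjusted p of 0.245. Against isotype 2 and 5 alone it was -0.26 ± 0.089 (95% interval -0.46 to -0.066, edgeR adjusted p = 0.176). With the offset for GC content and length it was -0.094 (95% interval -0.40 to 0.21, edgeR adjusted p = 0.667). The fold change stayed below 0 in 17 alternatives, whose adjusted p lay between 0.0613 and 0.667.

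Tcf12, an E protein that pairs with Twist1, was spread widely within the isotype group. It stood at 129, 132, 137 and 139 CPM in anti-CSF1R 7 to 10, against 137, 53.3, 40.9 and 127 CPM in isotype 2 to 5. Isotype 2 lay within the range of the anti-CSF1R libraries, isotype 5 just below it, and isotype 3 and 4 lay far below. The group means were 135 ± 4.64 CPM in anti-CSF1R libraries and 89.5 ± 49.3 CPM in isotype libraries (log2 fold change 0.59 ± 0.36, edgeR adjusted p = 0.315). Leaving out isotype 3 and 4, it was 0.027, with a 95% interval of -0.11 to 0.17, and with the offset it was 0.25 (-0.12 to 0.63). Tcf12 was the steadiest of the 9 factors in the 6 libraries without isotype 3 and 4, with a coefficient of variation of 3.72%, where the median gene had 9.61% and the 5th percentile was 3.29%.

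Twist2, also called Dermo1, a close relative of Twist1 that is mostly known from dermis, was the least abundant factor and rested on 28 to 118 counts per library. It stood at 0.397, 0.872, 0.894 and 0.858 CPM in anti-CSF1R 7 to 10, and at 0.766, 1.26, 1.95 and 1.13 CPM in isotype 2 to 5. Anti-CSF1R 7 was the lowest library, and isotype 2 lay inside the range of the anti-CSF1R group. The log2 fold change was -0.76 ± 0.36 (edgeR adjusted p = 0.281). With isotype 2 and 5 only it was -0.33, with a 95% interval of -1.1 to 0.47 that held differences of either sign. The filter of 1 CPM in 4 libraries removed the gene.

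Msx2, which drives growth of the skull bone rudiments, stood at 6.09, 5.40, 5.74 and 5.55 CPM in anti-CSF1R 7 to 10. It stood at 6.93, 7.10, 8.82 and 8.91 CPM in isotype 2 to 5, so the groups did not overlap. Unlike Twist1, its isotype values did not divide by library pair, since isotype 3 and 4 averaged 7.96 CPM and isotype 2 and 5 averaged 7.92 CPM. The group means were 5.70 ± 0.299 CPM in anti-CSF1R libraries and 7.94 ± 1.07 CPM in isotype libraries, a log2 fold change of -0.48 ± 0.16 (95% interval -0.83 to -0.12, edgeR adjusted p = 0.250). That estimate was -0.48 with isotype 2 and 5 only (95% interval -0.77 to -0.19, edgeR adjusted p = 0.0954) and -0.43 with the offset (95% interval -0.72 to -0.13, edgeR adjusted p = 0.162). It passed with DESeq2 on all libraries (-0.51, adjusted p = 0.0241), and in no other of 17 alternatives, whose adjusted p ran up to 0.486.

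Its paralog Msx1, a homeobox gene of teeth, palate and skull, was close to level. It stood at 15.1, 16.3, 15.9 and 14.7 CPM in anti-CSF1R 7 to 10, against 14.6, 18.0, 16.6 and 11.8 CPM in isotype 2 to 5. All 4 anti-CSF1R values fell within the isotype range. The log2 fold change was 0.024 ± 0.16 (95% interval -0.34 to 0.39, edgeR adjusted p = 0.921). Against isotype 2 and 5 alone it was 0.23 (95% interval 0.0023 to 0.46, edgeR adjusted p = 0.326), and with the offset it was 0.45 (95% interval 0.11 to 0.79, edgeR adjusted p = 0.181). Its sign turned in 5 of 17 alternatives.

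Alx4, an aristaless-type homeobox gene needed for ossification of the parietal bone, was the most even of the 9 factors over all 8 libraries. It stood at 142, 139, 150 and 146 CPM in anti-CSF1R 7 to 10 and at 141, 160, 158 and 120 CPM in isotype 2 to 5. Anti-CSF1R libraries lay inside the isotype range, and the means were 144 ± 4.45 CPM in anti-CSF1R libraries and 145 ± 18.7 CPM in isotype libraries. The log2 fold change was -0.0026 ± 0.14, with a 95% interval of -0.32 to 0.31 (edgeR adjusted p = 0.990). Leaving out isotype 3 and 4, it was 0.15 (95% interval -0.018 to 0.31), and its sign turned in 11 of 17 alternatives.

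Alx1, its relative that acts in the facial and frontal mesenchyme, was rare. It stood at 5.40, 4.73, 4.86 and 3.43 CPM in anti-CSF1R 7 to 10 and at 4.36, 2.16, 1.83 and 4.93 CPM in isotype 2 to 5. Isotype 3 and 4 were the 2 lowest libraries, anti-CSF1R 10 was the next, and the groups overlapped. The log2 fold change of 0.47 ± 0.33 (edgeR adjusted p = 0.346) was -0.014 with isotype 2 and 5 only (95% interval -0.42 to 0.40).

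Prrx1 is a paired-related homeobox gene of limb and head mesenchyme that also marks postnatal suture stem cells in mice. It had the highest mean CPM of the 9 in both groups, although Alx4 was above it in isotype 3 and 4 and Twist1 in isotype 4. Prrx1 stood at 267, 281, 294 and 303 CPM in anti-CSF1R 7 to 10, against 296, 123, 108 and 273 CPM in isotype 2 to 5. Isotype 2 and 5 lay inside the anti-CSF1R range, and isotype 3 and 4 lay far below every other library. The log2 fold change on all libraries was 0.52 ± 0.33 (edgeR adjusted p = 0.317). Against isotype 2 and 5 alone it was 0.0055 ± 0.073, with a 95% interval of -0.16 to 0.17, and with the offset it was 0.11 (-0.14 to 0.36). The coefficient of variation in the 6 libraries was 4.90%.

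Six2, which keeps progenitors undifferentiated in the mouse kidney and acts in the cranial base, stood at 22.1, 20.2, 27.3 and 19.3 CPM in anti-CSF1R 7 to 10. It stood at 22.6, 37.6, 29.9 and 32.5 CPM in isotype 2 to 5. The groups overlapped, because anti-CSF1R 9 was above isotype 2. The means were 22.2 ± 3.58 CPM in anti-CSF1R libraries and 30.6 ± 6.24 CPM in isotype libraries (log2 fold change -0.47 ± 0.19, edgeR adjusted p = 0.278). The estimate was -0.32 with isotype 2 and 5 only (95% interval -0.76 to 0.13) and -0.058 with the offset (95% interval -0.47 to 0.36).

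**Figure D2:**
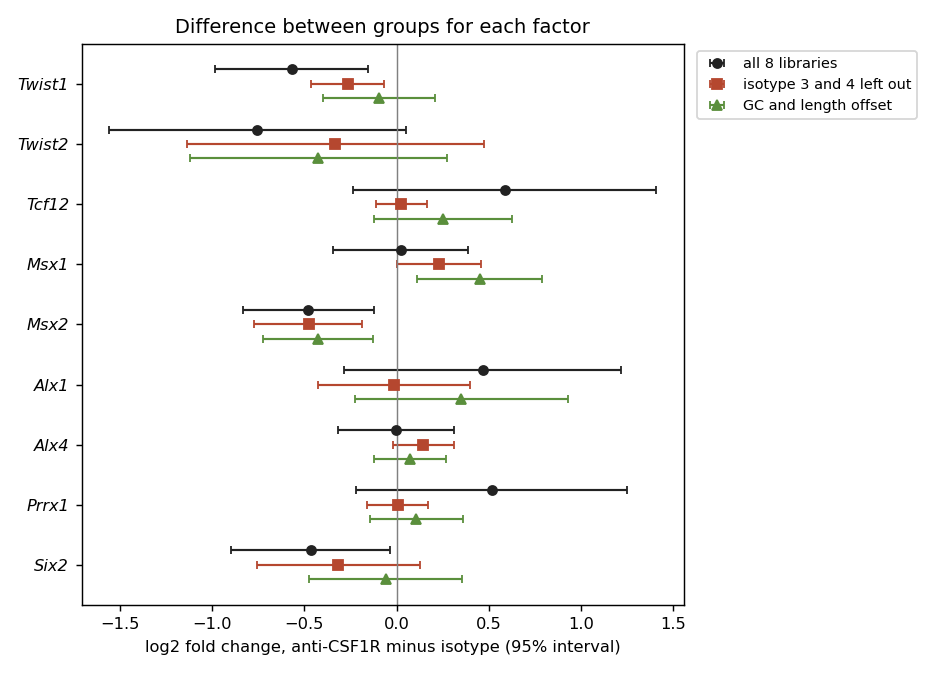
Log2 fold change of each factor, anti-CSF1R minus isotype, with its 95% interval, from all 8 libraries (black circles), with isotype 3 and 4 left out (red squares) and with an offset for GC content and length (green triangles). Msx2 keeps nearly the same estimate in all 3 fits (-0.48, -0.48 and -0.43), while Prrx1 and Tcf12 move to 0.0055 and 0.027 without isotype 3 and 4.

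Within the isotype group, the factors with the lowest GC content were lower in isotype 3 and 4 and those with the highest were higher there. Prrx1, Tcf12 and Alx1, with a GC content of 43.6%, 44.4% and 45.5% in their longest GENCODE M21 transcript, stood in isotype 3 and 4 at 0.406, 0.357 and 0.429 times their level in isotype 2 and 5. Twist1, Msx1 and Six2, with 59.3%, 58.2% and 61.2%, stood at 1.48, 1.31 and 1.23 times that level. Alx4 (54.8%) and Twist2 (52.6%) stood at 1.22 and 1.69 times that level. Msx2, with a GC content of 48.5%, stood at 1.005 times it. Over the 16005 tested genes with a GC and length value (94% of those tested) the median of this difference was -1.14 (log2) for a GC content of 40% to 45% and 0.57 for 55% to 60%. Long transcripts were lower in isotype 3 and 4 as well, with a median of -0.81 above 6000 bases and 0.43 up to 2000 bases, and Prrx1 (6527 bases) and Tcf12 (6299 bases) are among the long ones. Alx4, at 7056 bases, was not lower there. What led to the difference between these libraries was not tested.

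**Figure D3:**
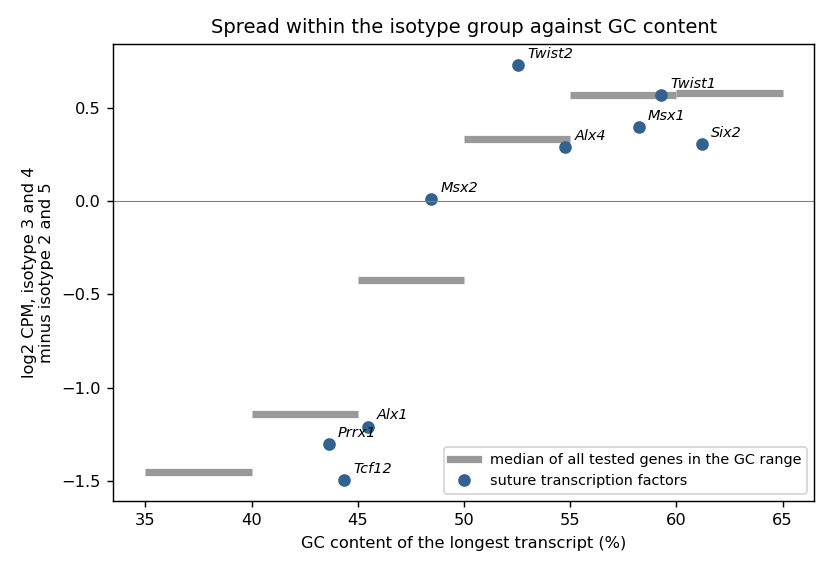
Difference of mean log2 CPM between isotype 3 and 4 and isotype 2 and 5 (vertical axis) for each factor, against the GC content of its longest transcript (horizontal axis, %); grey bars are medians of the 16005 tested genes with a GC value, in each GC range, with the end ranges drawn to 35% and 65%. Alx1, Prrx1 and Tcf12 lie between -1.5 and -1.2, and the 5 factors with the highest GC content lie above 0.

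Levels per length were used to order the factors, as CPM per kb of the longest transcript. In anti-CSF1R libraries Prrx1 (43.9 ± 2.37 CPM per kb) and Twist1 (43.0 ± 0.972) came first and overlapped, and Tcf12 (21.3 ± 0.737) and Alx4 (20.5 ± 0.631) came next and overlapped as well. Six2 (10.5 ± 1.69), Msx1 (8.00 ± 0.381), Msx2 (2.32 ± 0.122), Alx1 (1.71 ± 0.310) and Twist2 (0.299 ± 0.0948) followed with no overlap between neighbours. In isotype libraries the order was Twist1 (63.8 ± 15.4 CPM per kb), Prrx1 (30.7 ± 15.1), Alx4 (20.5 ± 2.65), Six2 (14.5 ± 2.95), Tcf12 (14.2 ± 7.83), Msx1 (7.87 ± 1.39), Msx2 (3.24 ± 0.436), Alx1 (1.23 ± 0.578) and Twist2 (0.505 ± 0.196). There the only neighbours whose ranges did not overlap were Msx1 with Msx2 and Msx2 with Alx1. Twist1 was above Prrx1 and Alx4 above Six2 in 4 of 4 isotype libraries, while Prrx1 was above Alx4, Six2 above Tcf12 and Tcf12 above Msx1 in 2 of 4. In anti-CSF1R libraries Prrx1 was above Twist1 in 3 of 4. Msx1, Msx2 and Alx1 kept their order in all 8. A shorter transcript than the longest annotated one would give a higher level per kb.

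**Figure D4:**
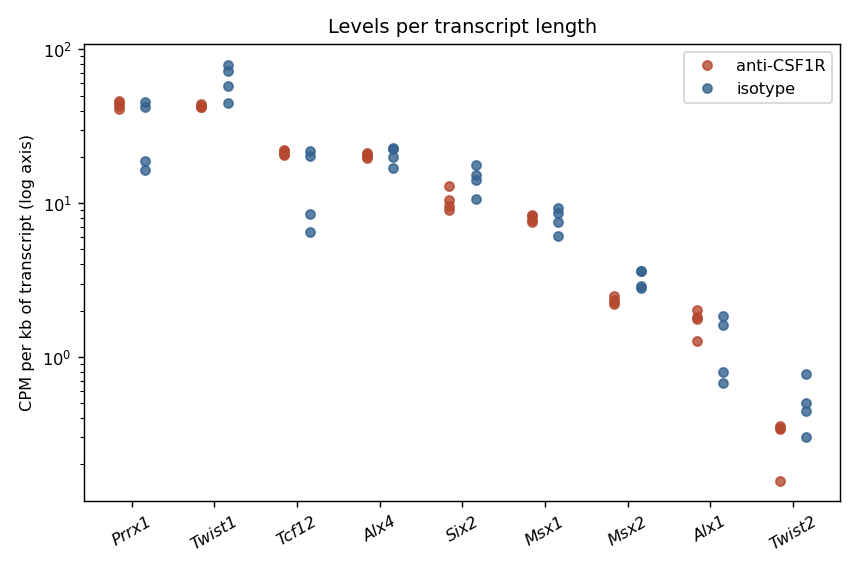
CPM per kb of the longest transcript on a log axis for each factor in every library, anti-CSF1R left of isotype. Prrx1 and Twist1 lie between 40.9 and 46.4 CPM per kb in anti-CSF1R libraries, and Twist2 lies below 0.772 in all 8.

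Differences between 2 factors within a library do not depend on how that library was scaled. A shift by GC content or length, as in isotype 3 and 4, does not cancel in them. In every pair the 2 factors differ in GC content, most in Six2 with Prrx1 and in Twist1 with Tcf12. No pair difference was computed with the offset. Of 5 pairs compared, 3 were within a family (Msx, Twist and Alx) and 1 was of dimer partners (Twist1 and Tcf12). Six2 with Prrx1, the other pair, is neither. The tests were exact two-sided permutation tests over 70 assignments, adjusted over the 5 (smallest possible p 0.0286). Twist1 minus Tcf12 was -0.94 ± 0.077 on the log2 CPM scale in anti-CSF1R libraries and 0.37 ± 1.2 in isotype libraries, lower in 4 of 4 anti-CSF1R libraries (difference -1.31, exact permutation p = 0.0286, adjusted p = 0.143). It was 1.15 and 1.66 in isotype 3 and 4 and -0.53 and -0.79 in isotype 2 and 5, and the difference was -0.28 with isotype 2 and 5 only. Msx2 minus Msx1 was -1.44 ± 0.12 in anti-CSF1R libraries and -0.93 ± 0.39 in isotype libraries (difference -0.51, exact permutation p = 0.0571, adjusted p = 0.143). Isotype 3, at -1.34, lay among the anti-CSF1R values of -1.59 to -1.30, and the other isotype libraries lay above them. Among 4 against 2 libraries, with isotype 3 and 4 out, the difference was -0.70, at the smallest p this allows (exact permutation p = 0.0667).

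Six2 minus Prrx1 was -3.70 ± 0.24 in anti-CSF1R and -2.59 ± 0.97 in isotype libraries (difference -1.11, exact permutation p = 0.0857, adjusted p = 0.143), and -0.31 apart with isotype 2 and 5 only. Alx4 minus Alx1 was 4.98 ± 0.30 in anti-CSF1R and 5.55 ± 0.89 in isotype libraries, a difference of -0.57 (exact permutation p = 0.314, adjusted p = 0.393) that was 0.18 with isotype 2 and 5 only. Twist2 minus Twist1 was -6.54 ± 0.57 in anti-CSF1R and -6.36 ± 0.43 in isotype libraries, a difference of -0.19 (exact permutation p = 0.657, adjusted p = 0.657). It was 0.099 without anti-CSF1R 7, whose value of -7.40 was far below the -6.28 to -6.23 of the other 3 libraries of its group. None of the 5 pairs passed the adjusted threshold.

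**Figure D5:**
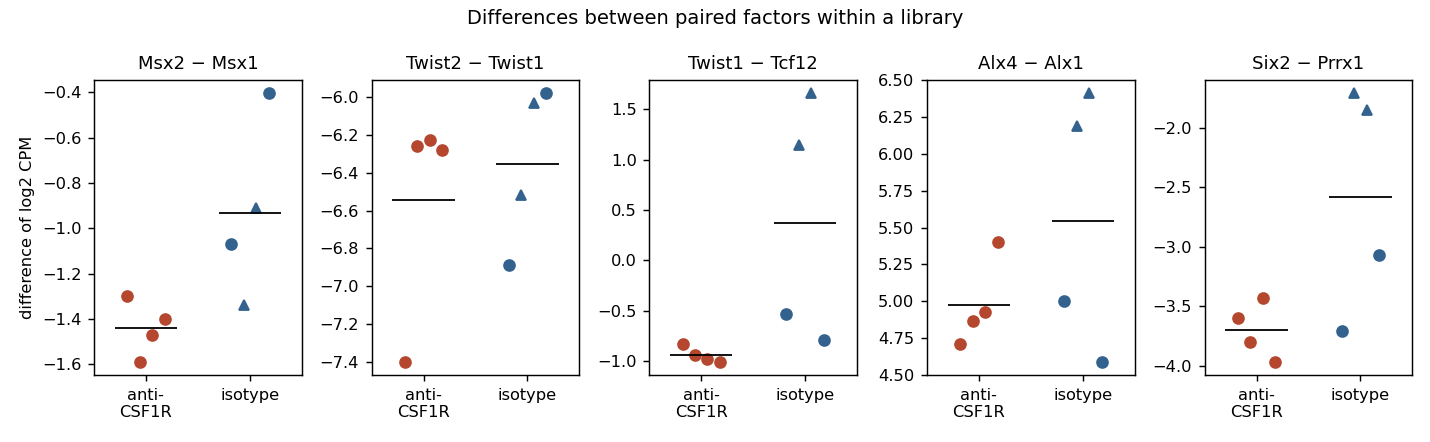
Difference of log2 CPM between 2 factors within each library, with anti-CSF1R at left and isotype at right in each panel; lines are group means and triangles are isotype 3 and 4. In Twist1 minus Tcf12, Six2 minus Prrx1 and Alx4 minus Alx1 both triangles lie at the top. In Msx2 minus Msx1 the highest library is isotype 5, at -0.40.

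By the root mean square difference of their centred log2 CPM over the 8 libraries, the closest pair among the 9 was Alx4 with Msx1 (0.075), followed by Prrx1 with Tcf12 (0.10). Without isotype 3 and 4, Prrx1 and Tcf12 were the closest pair, at 0.023. Among 61 genes of the related lists below, the nearest to Tcf12 were Zeb2 (0.054) and Ddr2 (0.081). Those nearest to Prrx1 were Zeb2 (0.091) and Gli3 (0.11). Median differences over the 61 genes were 0.682 for Tcf12 and 0.589 for Prrx1. Zeb2, Ddr2 and Gli3 were low in isotype 3 and 4, as Tcf12 and Prrx1 were. Their differences from isotype 2 and 5 were -1.41, -1.36 and -1.21 (log2). What made these genes alike was not tested. The nearest to Alx4 were Fgfr1 (0.070) and Sp7 (0.073), and Msx1 had the same neighbours (0.11 and 0.13). Twist1 was nearest to Dlx3 (0.18), Msx2 to Tgfbr2 (0.14) and Lmx1b (0.18), Six2 to Lmx1b and Erf (both 0.20), and Alx1 to Jag1 (0.21) and Tgfbr1 (0.22). Twist2 had no close neighbour, with Snai1 and Prrx2 at 0.44. Over the 6 libraries without isotype 3 and 4 most neighbours were others, such as Bmpr1a for both Prrx1 (0.041) and Tcf12 (0.028) and Id2 for Twist1 (0.065).

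Genes of other HLH proteins also gave no call. Of 10 genes, 8 were tested and 0 were called (1 of the 8 with an unadjusted p under 0.05, beside 17.9% of all genes), with a median log2 fold change of -0.078, and Hand1 and Hand2 had at most 2 counts in any library. Id3, an inhibitor that ties up E proteins, stood at 226 ± 9.12 CPM in anti-CSF1R libraries and 302 ± 138 CPM in isotype libraries (log2 fold change -0.42, edgeR adjusted p = 0.331). Its estimate was 0.14 with isotype 2 and 5 only. The E proteins Tcf4 and Tcf3 differed by 0.64 and -0.18 on the log2 scale (adjusted p of 0.316 and 0.449 in edgeR), and by 0.044 and 0.091 against isotype 2 and 5 alone. Tcf4, with a GC content of 40.9%, was low in isotype 3 and 4 as Tcf12 was, at 72.9 and 50.3 CPM, against 174 to 215 CPM in anti-CSF1R libraries and 189 and 191 CPM in isotype 2 and 5.

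Other transcription factors of the skull gave 0 calls among 27 tested of 30 (4 with an unadjusted p under 0.05, beside 17.9% of all genes), with a median log2 fold change of 0.11. Runx2, the factor that commits cells to the osteoblast lineage and that Twist1 restrains, stood at 346, 333, 378 and 390 CPM in anti-CSF1R 7 to 10. It stood at 312, 164, 168 and 320 CPM in isotype 2 to 5. Every anti-CSF1R library was above every isotype library, as 6.61% of all genes tested were, but isotype 5 lay just below anti-CSF1R 8. The log2 fold change was 0.59 (edgeR adjusted p = 0.278), and leaving out isotype 3 and 4 it was 0.19 (edgeR adjusted p = 0.297). Sp7, the osteoblast factor that acts after Runx2, had 698 ± 53.2 CPM in anti-CSF1R libraries and 731 ± 100 CPM in isotype libraries (edgeR adjusted p = 0.771). Against isotype 2 and 5 alone it differed by 0.068 on the log2 scale.

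The 22 signalling genes linked to craniosynostosis or suture growth also gave 0 calls (5 with an unadjusted p under 0.05, beside 17.9% of all genes), with a median log2 fold change of -0.0020. Fgfr2, a receptor whose activating mutations close human sutures, stood at 287, 306, 311 and 302 CPM in anti-CSF1R 7 to 10, against 225, 137, 158 and 251 CPM in isotype 2 to 5. Every anti-CSF1R library was above every isotype library, as 6.61% of all genes tested were (log2 fold change 0.64 ± 0.21, edgeR adjusted p = 0.241). Leaving out isotype 3 and 4, Fgfr2 passed at 0.34 ± 0.072 (edgeR adjusted p = 0.0368), as 0.679% of all genes did as higher. Tgfbr1, a TGF-beta receptor gene, passed there as lower (-0.33, edgeR adjusted p = 0.0285), as 2.38% of all genes did. On all libraries Tgfbr1 stood at 87.2 ± 4.49 CPM with anti-CSF1R and 74.0 ± 41.1 CPM with isotype (log2 fold change 0.24). Across the 17 alternatives Fgfr2 had an adjusted p of 0.0368 to 0.486 and Tgfbr1 of 0.0285 to 0.979. Fgfr1 was at 749.7 ± 36.3 CPM in anti-CSF1R libraries and 780.4 ± 97.1 CPM in isotype libraries (adjusted p of 0.789 in edgeR). Tgfbr2, the partner receptor of Tgfbr1, was at 194 ± 11.4 CPM in anti-CSF1R libraries and 226 ± 17.5 CPM in isotype libraries. It was lower in every anti-CSF1R library, as 8.34% of all genes tested were (edgeR adjusted p of 0.311).

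Markers of suture and skeletal progenitors gave 0 calls among 10 (1 with an unadjusted p under 0.05, beside 17.9% of all genes), with a median log2 fold change of 0.41 that was 0.076 with isotype 2 and 5 only. Postn, the matrix protein periostin of periosteum and suture, stood at 1752 ± 162 CPM in anti-CSF1R libraries and 1437 ± 1018 CPM in isotype libraries (edgeR adjusted p = 0.667). Pdgfra, a growth factor receptor of mesenchymal progenitors, had 323 ± 16.3 CPM in anti-CSF1R libraries and 225 ± 92.9 CPM in isotype libraries. Ddr2, a collagen receptor of suture cells, had 286 ± 13.1 CPM in anti-CSF1R libraries and 180 ± 94.7 CPM in isotype libraries (edgeR adjusted p = 0.290 for Pdgfra and 0.289 for Ddr2). Against isotype 2 and 5 alone, Postn, Pdgfra and Ddr2 differed by -0.38, 0.12 and 0.15 on the log2 scale.

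DESeq2 and limma-voom called none of the genes in these 4 related lists either. In edgeR 6 of 8 macrophage markers and 5 of 8 osteoclast markers passed as lower, where 0.822% of all genes tested did. The macrophage sums were 113 to 171 CPM in anti-CSF1R and 470 to 949 CPM in isotype libraries. Csf1r carried 51.6% of the macrophage sum, and Cd163 alone had a fold change above 0 (0.54, log2). Osteoclast sums were 1560 to 2130 CPM in anti-CSF1R libraries and 3750 to 10400 CPM in isotype libraries, with 57.3% from Mmp9. Cartilage markers summed to 3020 to 3990 CPM in anti-CSF1R libraries and 4210 to 6410 CPM in isotype libraries. Dura and arachnoid markers summed to 60.8 to 74.3 CPM in anti-CSF1R libraries and 104 to 219 CPM in isotype libraries. Both sums lay lower in every anti-CSF1R library, but 1 gene carried most of each, Col11a2 with 83.5% of the cartilage sum and Fxyd5 with 81% of the dura and arachnoid sum. Gene by gene, the groups overlapped for 6 of 8 cartilage markers and for 4 of 6 tested dura and arachnoid markers. The other 2 of each list were lower, as 8.34% of all genes tested were. All 8 cartilage fold changes lay below 0 (median -1.64, log2), as did 4 of the 6 for dura and arachnoid. Isotype 5 was the highest library for every cartilage marker but Col11a2. Col2a1 stood at 1951 CPM there, against 210 to 531 CPM in the other isotype libraries. Matn1 stood at 141.5 CPM there, against 15.6 to 55.4 CPM. Col11a2 stood at 3390 CPM in isotype 5 and at 3786 to 5445 CPM in the other isotype libraries. Among anti-CSF1R libraries Matn1 ran from 0.297 to 22.3 CPM. In edgeR 0 genes of both lists passed (5 and 2 with an unadjusted p under 0.05, beside 17.9% of all genes). With isotype 3 and 4 left out, 2 dura and arachnoid markers passed as lower, beside 2.38% of all genes. Under the offset 1 passed as lower, beside 1.8% of all genes. Endothelial markers summed to 702 to 796 CPM in anti-CSF1R and 605 to 695 CPM in isotype libraries. Of these 8 markers, 5 were higher in every anti-CSF1R library, as 6.61% of all genes tested were, and 3 overlapped. On all libraries 0 of the 8 passed in edgeR. With isotype 2 and 5 only, 1 passed as higher, beside 0.679% of all genes. No marker of these 5 lists was at 0 in every library. Their part in the lower Twist1 and Msx2 values was not tested.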

How the data were processed

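Parietal bone RNA was sequenced in 8 libraries, 4 per group. Poly(A) libraries were made with a strand-keeping kit from 1 µg of RNA and read as pairs of 101 bp, per the labels' protocols. The authors deposited raw counts per gene symbol in a single table. The submitters' processing notes list STAR 2.7.10b, featureCounts 1.6.3, GRCm38 and GRCm39 without a role. Which build, annotation and strand setting gave the counts is not given in the sources used here. The coordinates printed come from RefSeq on GRCm38.p6. Between 82.8% and 84.7% of counts from 1 to 10 were even numbers. Such an excess appears where each mate is counted, and counting errors then exceed those of the totals.

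The counts were tested with edgeR 4.0.16 in R 4.3.3 (filterByExpr, TMM factors, robust quasi-likelihood F-test, Benjamini-Hochberg adjustment over 17028 genes, threshold 0.05). Differences are given as anti-CSF1R minus isotype on the log2 scale, and log2 CPM used a prior count of 2. The floor was set at 3 counts, or 0.0396 to 0.0573 CPM, for counting error alone. On simulated counts the fit recovered 89 of 99 genes changed 4-fold and 27 of 99 changed 2-fold, with 9 false calls among 16845 genes. Those counts were drawn independently for each gene, without the shift by GC content and length in isotype 3 and 4. The figures therefore do not cover that shift. Alternatives were DESeq2 1.42.0, limma-voom (limma 3.58.1), scaling by RLE or by library size, 2 other filters, halved counts, each library left out, isotype 2 and 5 only, and an offset per library from splines (5 degrees of freedom each) of GC content and log2 length. The members, lists and tests were chosen with earlier results of these data known. Named were the members, per related list the called genes or else the 3 with the highest CPM, and the 2 nearest related genes of each member whose mean log2 CPM was 1 or more; some of the genes this rule names are not reported here. No batch is given in the labels.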

Additional observations from a re-analysis of the deposited data

Results flagged for a closer look

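Among the 28 sets of 4 libraries examined (9 factors and 5 pair differences in each group), 3 had a library far from the others by Dixon's ratio, where chance flags about 1 in 20. For Twist2 in the anti-CSF1R group the gap of library 7 (0.397 CPM, 28 counts) to the next took 0.928 of the group's range. For Twist2 minus Twist1 in the same group that share was 0.961, again from library 7. For Twist1 in the anti-CSF1R group it was 0.833, from library 7 at 72.3 CPM against 68.99 to 69.55 CPM, a narrow range in absolute terms. The cause was not tested.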

How the results depend on the processing

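No paired analysis was possible because the groups share no replicate number. Over 17 alternatives the fold changes of Twist1, Msx2, Six2, Prrx1 and Tcf12 kept their direction, as did that of Twist2 over its 16. Their sizes did not all hold. Prrx1 and Tcf12 were near 0 with isotype 2 and 5 only (0.0055 and 0.027), as were Twist1 and Six2 with the offset (-0.094 and -0.058). Msx2 ran from -0.57 to -0.33 and Twist2 from -0.97 to -0.33. The number of genes called, 144 on all libraries, was 777 with DESeq2, 368 with the offset and 536 without isotype 3 and 4, and ran from 0 to 260 with 1 library left out (0 without anti-CSF1R 7 and 0 without anti-CSF1R 8, where 1903 and 1597 passed an unadjusted 0.05; 4 without anti-CSF1R 9, 14 without anti-CSF1R 10, 35 without isotype 4, 260 without isotype 2 and 234 without isotype 5). DESeq2 called 1 member, beside 4.56% of all genes, and isotype 2 and 5 only called 2 signalling genes, beside 3.06% of all genes. Library size alone moved the median of all genes to 0.19 (log2). Signs turned for Alx1, from 0.47 on all libraries to -0.014 with isotype 2 and 5 only. They also turned for Alx4 and Msx1, which were near 0 on all libraries. Alx4 became 0.17 with library size alone, 0.0054 with voom, 0.0049 without the filter, 0.0041 with 1 CPM in 4 libraries, 0.15 with isotype 2 and 5 only, 0.074 with the offset, 0.00025 with halved counts, and -0.083 to 0.049 with 1 library left out. Msx1 became -0.014 with RLE factors and -0.014 with DESeq2, and ran from -0.082 to 0.11 with 1 library left out. It was 0.23 with isotype 2 and 5 only. With the offset it was 0.45, the largest absolute fold change of the 9 in that fit. Alx4 minus Alx1, -0.57 on all libraries, became 0.18 with isotype 2 and 5 only. With 1 library left out, Twist2 minus Twist1 ran from -0.37 to 0.099. The causes were not tested. Counts were lowest for Twist2 (28 to 118 counts) and Alx1 (111 to 381 counts). How far depth limited their estimates was not tested.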
